A study of Rattus norvegicus with 2 samples.

Results

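The genes described here are those of the growth factor IGF1, 3 of the proteins that bind it in tissue fluid and plasma, and a kinase that acts inside the cell after its receptor: Igf1, Igfbp2, Igfbp3, Igfbp5 and Akt2. They were chosen by gene symbol, and each had 1 row among the 2325 rows of the deposited table. The material was cultured mesenchymal stem cells from rat bone marrow (bmMSCs), stromal cells that grow attached to plastic, taken from the Sprague-Dawley strain and used at passages 3 to 5. One library was made from bmMSCs that had received both Pdx1, a homeodomain factor of the developing pancreas, and Ngn3 (Neurog3), a basic helix-loop-helix factor of endocrine precursors, and were collected 10 days later. The other came from untransfected bmMSCs, the submitters' negative control. The control received no transfection, so the procedure and the introduced genes cannot be told apart. The labels name no vector, no selection of transfected cells, no number of animals and no time in culture for the control.

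IGF1 is a secreted peptide that promotes growth and survival through its receptor, a tyrosine kinase, which signals through phosphatidylinositol 3-kinase to the Akt kinases. Most IGF outside cells is held by a family of binding proteins, which prolong its life, keep it from the receptor or deliver it, and are cut by proteases that free it. Marrow stromal cells are known to make IGF1 and several binding proteins, and IGFs stored in bone matrix act on bone-forming cells.

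The transfected library held 7415094 reads and the untransfected library 7800831, as implied by the deposited counts, gene lengths and RPKM (reads scaled by gene length and by the library total). The table is the authors' selection of genes that differed, with a smallest absolute log2 ratio of 1.00, so every listed gene had already passed a difference of that size. Genes outside it were not analysed here. Of the listed genes 63.5% were higher and 36.5% lower in transfected cells, and the counts of short lists below are to be read beside these shares. With 1 library per condition no test across replicates was possible. Each 95% interval below covers counting error only, and fewer cells of a type and less RNA per cell cannot be told apart in such libraries. Of the fixed stromal markers 5 of 11 were listed, 3 higher and 2 lower, with a summed level of 982 RPKM in transfected and 2207 RPKM in untransfected cells. All 4 smooth muscle markers were lower (summed level 3578 RPKM in transfected and 12085 RPKM in untransfected cells). Neuronal markers were higher in 3 of 3 listed cases from 5 (74.7 and 14.4 RPKM). Of 9 blood markers 2 were listed, 1 higher and 1 lower, so their sum does not describe both. That sum was 3.34 RPKM in transfected and 9.22 RPKM in untransfected cells. Endothelial markers, 1 listed of 5, stood at 1.57 RPKM in transfected and 5.30 RPKM in untransfected cells. The osteoblast list had 1 listed gene of 6 (0.329 and 3.85 RPKM), the chondrocyte list 1 of 3 (3.69 and 8.00 RPKM) and the adipocyte list 1 of 5 (43.1 and 5.88 RPKM). From 9 beta cell markers 1 was listed, Pdx1, one of the introduced genes. It had 565 reads in transfected cells and was the one listed marker at 0 reads in a library, the untransfected one. Reads of the introduced and the cells' own Pdx1 are not separated, and Neurog3 was not analysed here. The part that these cell types play in the differences below was not tested.

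The windows upstream of the 3 binding protein genes are shown because the genes differed so unequally between the libraries and because Igfbp5 and Igfbp2 are neighbours. On rat chromosome 9 in the GRCr8 assembly no annotated gene of any kind lies between them, and they lie on opposite strands with their 3′ ends facing each other. The windows are the 250 bases before the RefSeq start of each gene, from RefSeq (GRCr8). They are chr9:81914188-81914437 on the minus strand for Igfbp5, chr14:86277945-86278194 on the minus strand for Igfbp3 and chr9:81864561-81864810 on the plus strand for Igfbp2. Capitals mark CANNTG, the letters bound by basic helix-loop-helix factors, the class of Ngn3. The search covered both strands and also looked for TAAT, the core letters of homeodomain factors, the class of Pdx1, which none of these windows holds. No match overlaps another.
Igfbp5: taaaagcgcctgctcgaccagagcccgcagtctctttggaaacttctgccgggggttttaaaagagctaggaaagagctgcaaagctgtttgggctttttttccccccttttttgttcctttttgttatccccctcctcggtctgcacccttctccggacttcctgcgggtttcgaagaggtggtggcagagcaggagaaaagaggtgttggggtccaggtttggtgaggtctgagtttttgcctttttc
Igfbp3: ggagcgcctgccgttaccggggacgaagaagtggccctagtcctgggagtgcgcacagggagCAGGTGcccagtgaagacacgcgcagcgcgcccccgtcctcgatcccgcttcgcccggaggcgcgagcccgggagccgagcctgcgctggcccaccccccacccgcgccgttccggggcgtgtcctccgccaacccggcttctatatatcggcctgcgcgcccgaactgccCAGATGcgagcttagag
Igfbp2: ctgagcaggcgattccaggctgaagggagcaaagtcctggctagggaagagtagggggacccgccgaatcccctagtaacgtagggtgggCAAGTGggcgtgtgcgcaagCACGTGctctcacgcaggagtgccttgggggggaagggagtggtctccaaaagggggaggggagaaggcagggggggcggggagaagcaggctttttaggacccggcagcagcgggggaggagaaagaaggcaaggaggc

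The Igfbp5 window held no CANNTG, whereas the Igfbp3 and Igfbp2 windows held 2 each. Among 27457 RefSeq gene windows of the same length, 65.2% held CANNTG and 56.3% held TAAT, so windows with and without these short motifs are both common. The Igfbp3 window held TATATA, letters like those of a core promoter box, which 5.44% of windows hold. It was also the richest of the 3 in G and C, at 71.6% with 31 CG pairs, against 64.0% with 11 in Igfbp2 and 51.6% with 8 in Igfbp5. The median over all windows was 52.0% with 6 CG pairs. These matches describe letters and not binding. The windows in the RefSeq table for Igf1 and Akt2 do not begin at the outermost annotated start of the gene and are not shown.

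Of the 5 genes, 4 were higher and 1 was lower in transfected cells. The call needed a difference of at least 2-fold in reads per library total and an interval that excluded 1, and by that rule 63.5% of the listed genes were higher and 36.5% lower. Since every listed gene had passed a difference of that size, the count carries no information beyond direction. At a ratio of at least 10-fold, Igfbp5 and Igfbp3 were higher, as were 9.33% of listed genes, and Igfbp2 was lower, as were 3.74%. The interval bound nearest to no difference also passed 10-fold for Igfbp5 and Igfbp3, as for 4.82% of listed genes, but not for Igfbp2, where 0.946% of listed genes passed on the lower side. The median log2 ratio of the 5 genes was 1.76, and that of all listed genes 1.24. The direction of each of the 5 genes was the same under every scaling tried. Most of that was fixed by the selection, since no listed gene has an absolute log2 ratio below 1.00. Column sums and TMM moved log2 ratios by 0.10 and -0.78, and adding 1 to RPKM turns no direction. Only median-of-ratios scaling, at -1.20, could have turned a gene, and only a higher one. Igf1 and Akt2 were below 2-fold under TMM and median-of-ratios scaling, which lower all ratios.

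**Figure D1:**
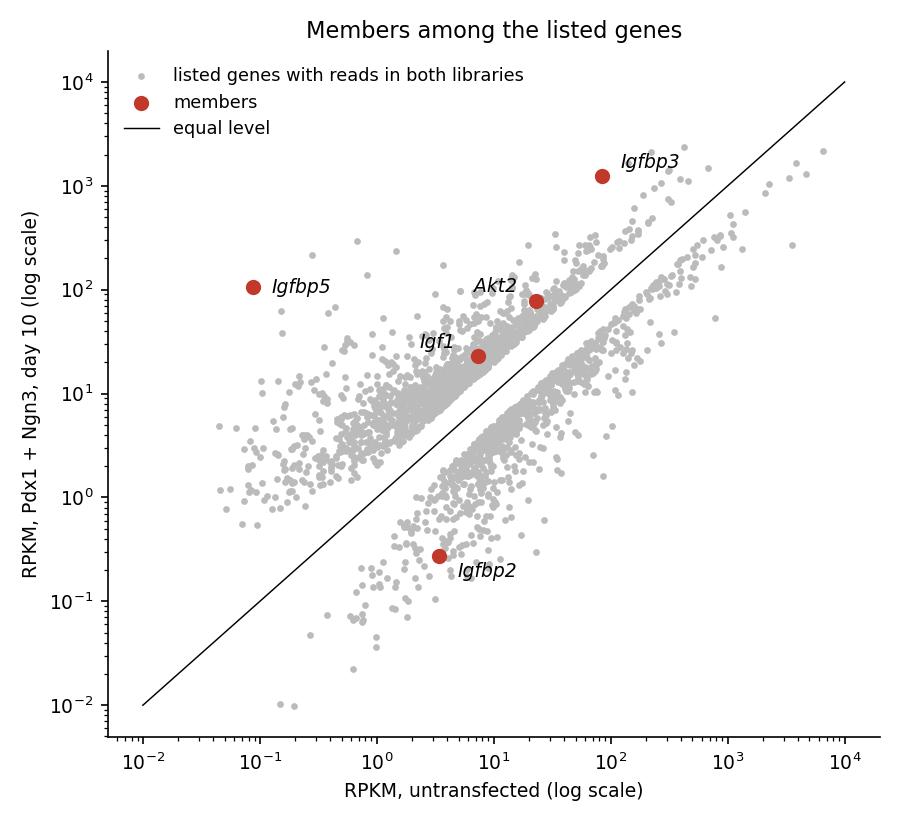
Level of every listed gene with reads in both libraries, as RPKM on log axes, in untransfected (x) and transfected (y) bmMSCs, with the 5 genes in red and a line of equal level. The empty band along the line is the authors' selection, Igfbp5 stands at 106 RPKM in transfected against 0.0874 RPKM in untransfected cells, and Igf1 and Akt2 lie inside the main cloud of higher genes.

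Igf1 (gene 24482) encodes the ligand. It had 321 reads in transfected cells and 108 reads in untransfected cells. In length-scaled terms the level was 23.0 RPKM (interval 20.6 to 25.7) in transfected and 7.37 RPKM (6.04 to 8.90) in untransfected cells. The counting intervals did not overlap, and the ratio was 3.13 (2.51 to 3.93). The ratio was 1.83 (1.46 to 2.29) under TMM scaling and 1.36 (1.09 to 1.71) under median-of-ratios scaling, both computed on genes selected for difference. By level, Igf1 ranked 627 of 2325 listed genes in transfected and 1085 in untransfected cells. The deposited row quotes 1 transcript variant of Igf1 as its representative cDNA, so the splice forms, which encode different precursor ends, are not separated. Of the other fixed ligands and receptors (Igf2, Ins1, Ins2, Igf1r, Igf2r, Insr and Insrr), none was listed, and they were not analysed here.

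Igfbp5 (gene 25285) encodes a binding protein that attaches to extracellular matrix and is abundant in bone. It had 4630 reads in transfected cells and 4 reads in untransfected cells. Its level was 106 RPKM (103 to 110) in transfected and 0.0874 RPKM (0.0238 to 0.224) in untransfected cells, which placed it at rank 152 and rank 2201 of the listed genes. The transcript was thus close to the limit of detection in the control and among the better expressed listed genes after transfection. The ratio was 1218, with an interval of 475 to 4471 whose width comes from the 4 control reads. It was the highest ratio of the 2325 listed genes when genes at 0 reads are set to a floor of 3 reads.

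A second row belongs with Igfbp5 and was found after the values were seen. It has no symbol, but the deposited annotation gives it IGF binding as its function, and its best protein match is the same mouse IGFBP5 entry as that of the Igfbp5 row. This cDNA, with a length of 757 bases, had 31 reads in transfected and 0 reads in untransfected cells. It was 10.9-fold higher against a floor of 3 reads for the library (exact lower limit 8.33). Its transfected reads amounted to 0.670% of those of the Igfbp5 row. How reads shared by both rows were counted is not given, and with these reads added the Igfbp5 ratio was 1226.

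Igfbp3 (gene 24484) encodes the main carrier of IGFs in blood, where it forms a complex with IGF and the acid-labile subunit. It had 22335 reads in transfected cells and 1590 reads in untransfected cells. The level was 1247 RPKM (1230 to 1263) in transfected and 84.4 RPKM (80.3 to 88.6) in untransfected cells, far outside each other's counting interval. Igfbp3 alone took 0.301% of all transfected reads and 0.0204% of untransfected reads. It ranked 10 by level among the listed genes in transfected cells and 159 in untransfected cells. The ratio was 14.8 (14.0 to 15.6), and it was 8.63 under TMM and 6.43 under median-of-ratios scaling. Its Igfbp1 neighbour on chromosome 14, another family member, was not listed and was not analysed here.

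Igfbp2 (gene 25662) encodes a binding protein that also carries an RGD stretch recognised by integrins. It had 3 reads in transfected cells and 39 reads in untransfected cells. Its level was 0.273 RPKM (0.0563 to 0.798) in transfected and 3.37 RPKM (2.40 to 4.61) in untransfected cells, the opposite order to that of Igfbp5, its neighbour. The ratio was 0.0809, with an interval of 0.0160 to 0.255, so the bound nearest to no difference was 3.93-fold lower. Igfbp2 had the fewest reads of the 5 genes over both libraries, and its interval was the widest of the 5 on the log2 scale, from -5.97 to -1.97.

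**Figure D2:**
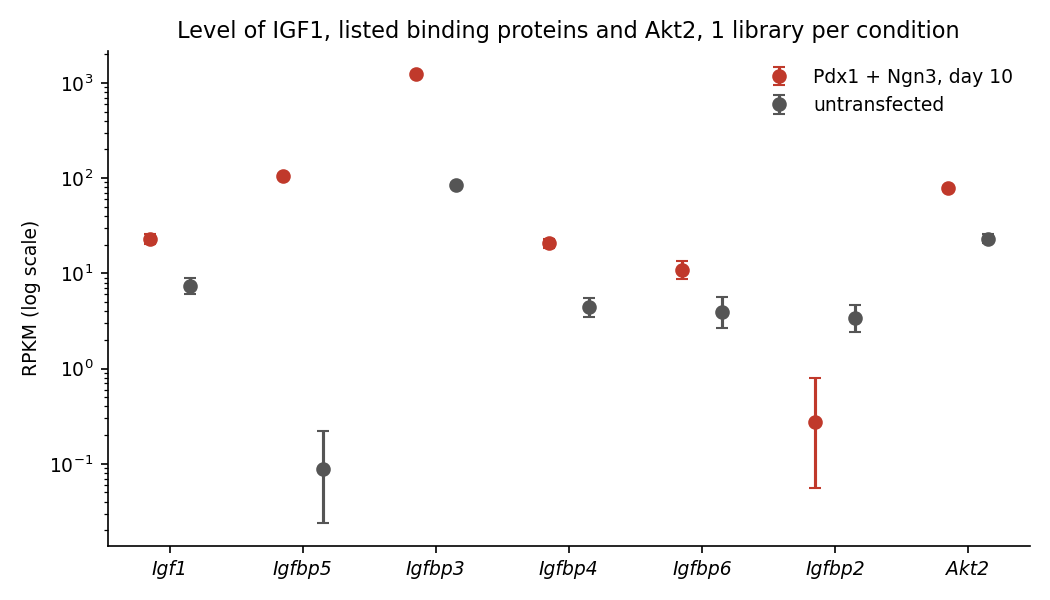
RPKM on a log axis of Igf1, the 5 listed binding proteins and Akt2 in transfected (red) and untransfected (grey) bmMSCs, 1 library each, with exact 95% Poisson intervals. Igfbp2 is the one gene with the lower level in transfected cells, 0.273 against 3.37 RPKM, and only the low values of Igfbp5 and Igfbp2 have wide intervals.

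The listed family members outside the 5 genes were Igfbp4 and Igfbp6, both higher. Igfbp4, a mostly inhibitory binding protein that the protease PAPP-A cuts, had 338 reads in transfected and 76 reads in untransfected cells. Its level was 20.8 RPKM and 4.44 RPKM in the same order, a ratio of 4.68 (3.64 to 6.08). Igfbp6, which prefers IGF2, had 82 reads in transfected and 31 reads in untransfected cells, a ratio of 2.78 (1.82 to 4.35). The Igfbp6 ratio was 1.62 (1.06 to 2.54) under TMM and 1.21 (0.792 to 1.89) under median-of-ratios scaling, which ended its call. Igfbp4 kept its call at 2.73 (2.12 to 3.55) under TMM and 2.03 (1.58 to 2.64) under median-of-ratios scaling. The second of these ratios lies close to the limit of 2-fold, and its interval reaches below it. From 9 fixed binding protein genes 5 were thus listed, 4 higher and 1 lower, beside 63.5% higher over all listed genes. Their median log2 ratio was 2.23. Under both of those scalings 3 were higher and 1 lower. Among all listed genes called, 46.4% were then higher under TMM and 37.6% under median-of-ratios scaling.

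The make-up of the listed binding protein transcripts was compared by length-scaled level. Summed over the 5 listed binding proteins, the level was 1385 RPKM in transfected cells and 96.2 RPKM in untransfected cells. Igfbp3 held 90.0% of that sum in transfected and 87.7% in untransfected cells, so it led in both. Igfbp5 held 7.68% in transfected and 0.0908% in untransfected cells, which placed it second after transfection and last in the control. Igfbp2 held 0.0197% in transfected and 3.51% in untransfected cells. The shares of Igfbp4 (1.50% and 4.62%) and Igfbp6 (0.791% and 4.09%) were lower in transfected cells although both genes had higher levels there. These shares do not depend on the library totals, but they cover listed genes alone. By reads in place of RPKM, Igfbp3 held 81.6% in transfected and 91.4% in untransfected cells, and its order between the libraries turned. Reads are not scaled by length, and the Igfbp5 cDNA has 5868 bases against 2416 for Igfbp3.

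**Figure D3:**
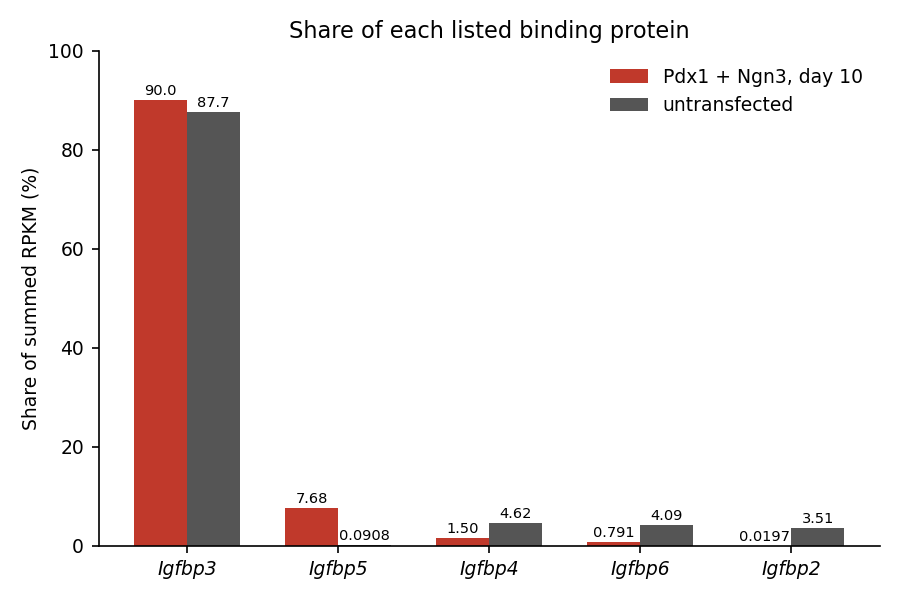
Share of each listed binding protein in the summed RPKM of the 5, in transfected (red) and untransfected (grey) bmMSCs. Igfbp3 held 90.0% and 87.7%, while the bars of Igfbp5 (7.68% and 0.0908%) and Igfbp2 (0.0197% and 3.51%) stand in opposite order.

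Set against the ligand within each library, the listed binding proteins summed to 60.1 times the RPKM of Igf1 in transfected cells and 13.1 times in untransfected cells. Without Igfbp3 the sums were 6.01 times in transfected and 1.61 times in untransfected cells. Igfbp5 transcript stood at 4.62 times the Igf1 level (4.12 to 5.19) in transfected and 0.0119 times (0.00317 to 0.0313) in untransfected cells. For Igfbp3 the multiples were 54.1 (48.5 to 60.6) in transfected and 11.4 (9.42 to 14.0) in untransfected cells. For Igfbp6 they were 0.476 (0.369 to 0.608) and 0.535 (0.346 to 0.803), so its level relative to the ligand was not distinguishable between the libraries at this depth. For Igfbp4 the multiples were 0.902 (0.772 to 1.05) in transfected and 0.603 (0.443 to 0.816) in untransfected cells. Their intervals overlap a little, which does not show that the multiples are equal, and their direct ratio was not computed. Igfbp2 stood lower against the ligand in transfected cells, at 0.0118 (0.00243 to 0.0349), than in untransfected cells, at 0.458 (0.309 to 0.666).

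Akt2 (gene 25233) encodes an Akt kinase known for its part in insulin-stimulated glucose uptake. It had 1151 reads in transfected cells and 358 reads in untransfected cells. The level was 78.2 RPKM (73.8 to 82.9) in transfected and 23.1 RPKM (20.8 to 25.7) in untransfected cells, with no overlap of the counting intervals. The ratio was 3.38 (3.00 to 3.82), and it was 1.98 (1.75 to 2.23) under TMM and 1.47 (1.31 to 1.66) under median-of-ratios scaling. Transcript abundance says nothing of the kinase's phosphorylation. In the GRCr8 annotation Akt2 overlaps C1h19orf47, and no strand-marking step is named, so reads from the overlap, if counted, cannot be assigned. The paralog Akt1 was not listed and was not analysed here.

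**Figure D4:**
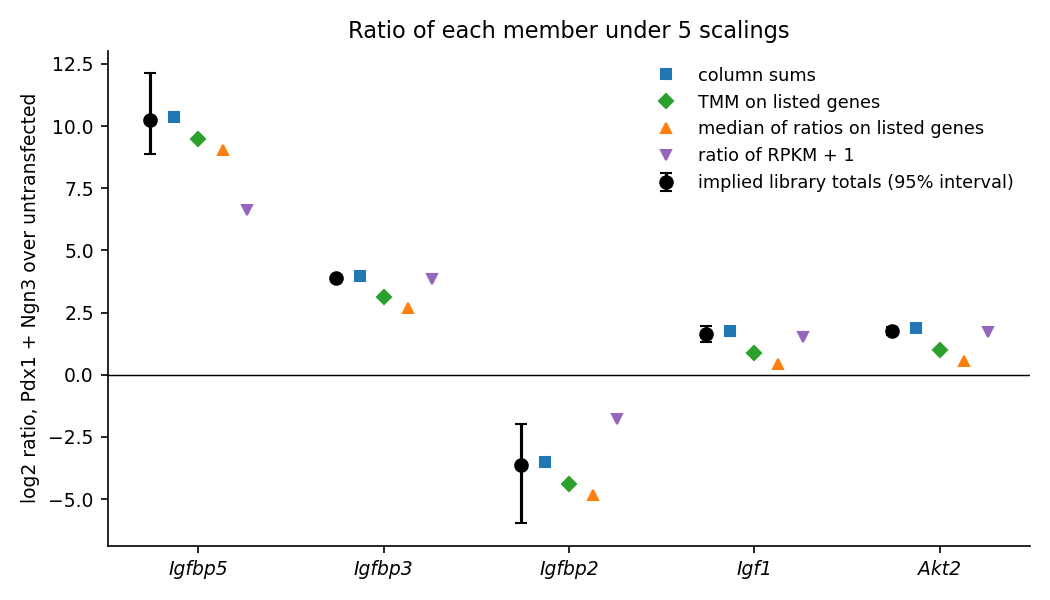
Log2 ratio of transfected over untransfected bmMSCs for the 5 genes with implied library totals (black, with 95% counting interval), column sums, TMM and median-of-ratios scaling, and RPKM + 1. No gene crosses 0 under any of them, though only median-of-ratios scaling could have moved a listed gene across. Igf1 and Akt2 come closest, at 0.44 and 0.56 under that scaling.

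Pairs of genes were compared by the ratio of their ratios, in which library totals cancel. Of 10 pairs, 9 had an exact interval that excluded 1. The exception was Igf1 over Akt2, at 0.924 (0.717 to 1.20), an interval that still allows a difference between the 2 genes of that size. Igfbp3 differed between the libraries by 4.73 times as much as Igf1 (3.74 to 5.93) and 4.37 times as much as Akt2 (3.83 to 4.98). Igfbp5 exceeded Igfbp3 in this respect by 82.4 times (32.1 to 303). The reads of Igfbp5 per read of Igfbp3 were 0.207 in transfected and 0.00252 in untransfected cells.

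The genes nearest to each in level were sought among 1516 rat genes by the distance between log2 RPKM values over the 2 libraries, with 0 reads set to 1 read. Nearest to Igf1 were Hyal1, a hyaluronidase (22.3 RPKM in transfected and 7.50 RPKM in untransfected cells, distance 0.06), and Plekha5 (distance 0.07). Nearest to Akt2 were Uap1, an enzyme of the amino sugar pathway (77.5 and 21.1 RPKM, distance 0.13), and Clu, clusterin (distance 0.14). Nearest to Igfbp2 was Myo7a, an unconventional myosin (0.297 RPKM in transfected and 3.47 RPKM in untransfected cells, distance 0.13). The distances were larger for Igfbp3 and Igfbp5. Nearest to Igfbp3 were Serping1, the C1 inhibitor (1669 RPKM in transfected and 140 RPKM in untransfected cells, distance 0.84), and Dcn, decorin (distance 1.33). Nearest to Igfbp5 were the introduced Pdx1 (54.3 RPKM and 0 reads, distance 0.97) and Ass1, argininosuccinate synthase (50.8 RPKM and 0 reads, distance 1.09). That order rests on the value set for 0 reads. With 3 reads in its place, an alternative chosen after seeing the data, the nearest was Ace, angiotensin-converting enzyme, with 1960 reads in transfected and 5 reads in untransfected cells (distance 1.10), and Pdx1 stood at 1.91 and Ass1 at 1.74.

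The wider IGF axis was described with 10 lists that together name 113 genes, of which 29 were listed, 14 higher and 15 lower. Of these 29, 48.3% were higher, against 63.5% of all listed genes. The median log2 ratio of the 29 was -1.03, against 1.24 over all listed genes. No listed gene has an absolute log2 ratio below 1.00. In so even a split the median falls at the edge of that gap and overstates the contrast. Without the 5 genes 10 of 24 were higher. The count of higher genes was 8 under TMM and 7 under median-of-ratios scaling, and that of lower genes was 15 under both. Among all listed genes called, 46.4% were higher under TMM and 37.6% under median-of-ratios scaling. Under median-of-ratios scaling the directions of Jak2 and Pik3r2 turned.

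Proteases that act on binding proteins, their inhibitors and the stanniocalcins were split, 3 higher and 4 lower of 7 listed from 15. C1s, the complement protease reported to cut IGFBP5 in human fibroblast cultures, had 2666 reads in transfected and 316 reads in untransfected cells, a ratio of 8.88 (7.90 to 10.0). Htra3, a serine protease with an IGFBP-like domain, had 45 reads in transfected and 7 reads in untransfected cells. Mmp2, gelatinase A, was at 1118 RPKM in transfected and 459 RPKM in untransfected cells. Plau, urokinase, was at 1.37 RPKM in transfected and 17.3 RPKM in untransfected cells, a ratio of 0.0789 (0.0498 to 0.120). The metalloprotease Adamts1 (ratio 0.201) and Stc2, a stanniocalcin that inhibits PAPP-A (ratio 0.386), were lower too. PAPP-A itself (Pappa) was not listed and was not analysed here.

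The CCN family, matrix-associated proteins whose first domain resembles that of the IGF binding proteins, was lower in 3 of 3 listed cases from 6, beside 36.5% of all listed genes. Ctgf was at 353 RPKM in transfected and 1071 RPKM in untransfected cells, Nov at 21.2 and 65.0 RPKM, and Wisp2 at 2.56 and 69.9 RPKM. The domain is therefore found on both sides of the table, with Igfbp3, Igfbp4, Igfbp5, Igfbp6 and Htra3 higher and the 3 CCN genes and Igfbp2 lower. Kazald1, another secreted protein with an IGFBP-like domain, named after its values were seen, was higher with 75 reads in transfected and 23 reads in untransfected cells.

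Between receptor and Akt, 3 of 19 adaptor and phosphatidylinositol 3-kinase genes were listed. Pik3r2, a regulatory subunit, was higher (19.4 RPKM in transfected and 8.58 RPKM in untransfected cells), and Pik3r3, another regulatory subunit, was lower (4.96 and 20.9 RPKM). Trib3, a pseudokinase that binds Akt, was the other listed gene at the level of Akt, with 7 reads in transfected and 96 reads in untransfected cells, a ratio of 0.0767 (0.0300 to 0.164). None of the 20 genes downstream of Akt, among them those for the FoxO factors, GSK3 and mTOR, was listed, and they were not analysed here.

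Igf1 is a target of growth hormone in liver, and genes of that axis were higher in 3 of 3 listed cases from 9, beside 63.5% of all listed genes. These were the feedback inhibitors Socs2 (64 reads in transfected and 5 in untransfected cells, ratio 13.5, interval 5.48 to 42.9) and Socs3 (70 and 7 reads, ratio 10.5, interval 4.85 to 27.1), and the receptor-bound kinase Jak2 (ratio 2.20), whose direction turned under median-of-ratios scaling. These inhibitors and Jak2 also serve cytokine receptors. Matrix and surface partners of the binding proteins were lower in 4 of 5 listed cases from 14, again beside 36.5%. Thbs1, thrombospondin 1, was at 1665 RPKM in transfected and 3835 RPKM in untransfected cells, and the integrin genes Itgb3 (ratio 0.120), Itga5 (0.325) and Itgb1 (0.491) were lower too. Postn, periostin, was the exception at 1415 RPKM in transfected and 313 RPKM in untransfected cells.

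**Figure D5:**
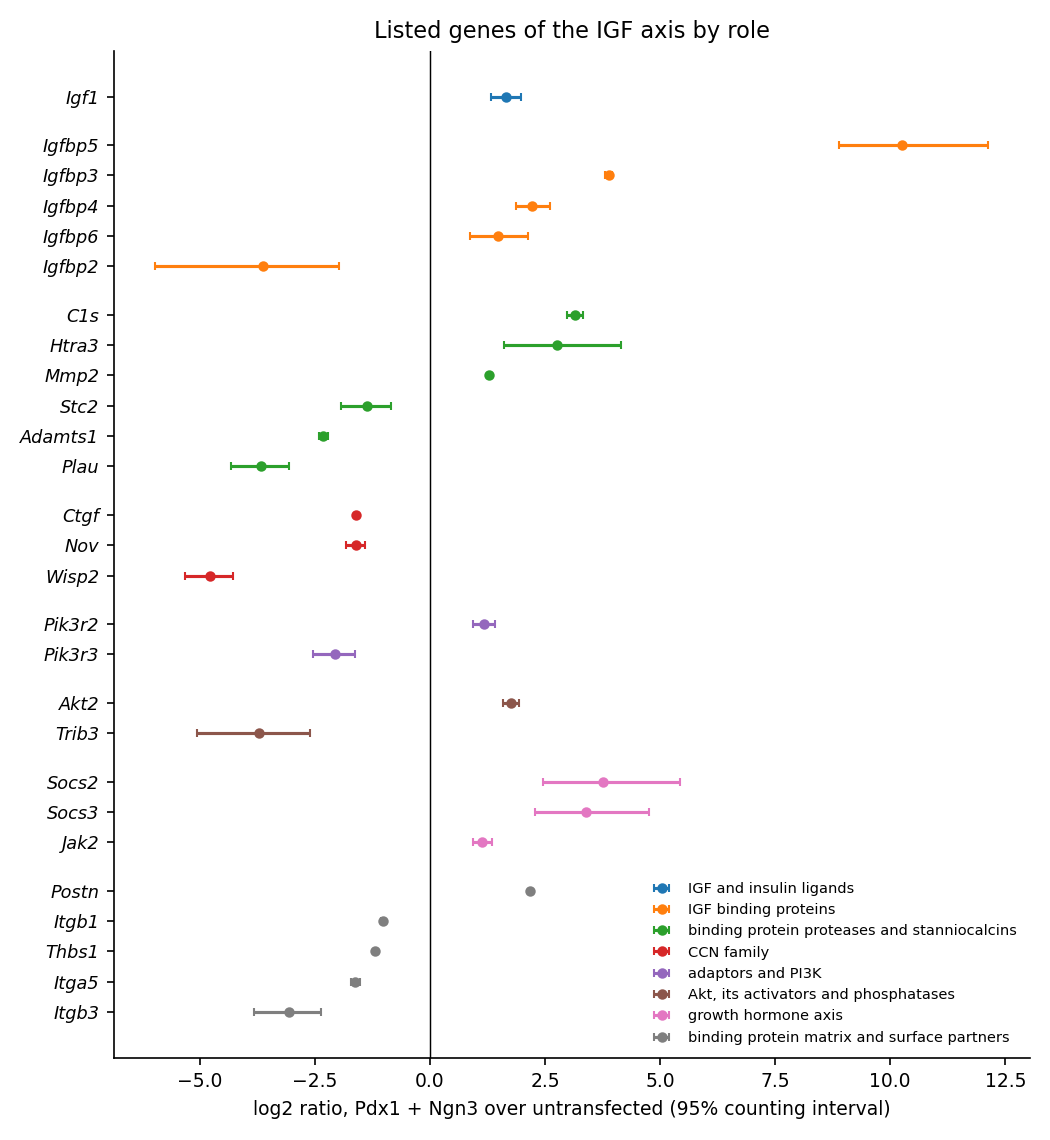
Log2 ratio of transfected over untransfected bmMSCs, with 95% counting intervals, for 27 listed genes of the IGF axis, coloured by list. Binding proteins and the growth hormone axis lie mostly to the right of 0, and the CCN genes and most matrix and surface partners to the left.

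The deposited annotation places Igf1, Igfbp2, Igfbp3 and Igfbp5 under cell growth, and 30 of the 48 listed rows with that term (62.5%) were higher. Akt2 is annotated under response to insulin stimulus, where 7 of 13 listed rows (53.8%) were higher. Over all listed genes the share was 63.5%. Of 5 rows annotated with IGF binding, 4 were higher, the cDNA without a symbol among them, and Igfbp2 was lower.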

How the data were processed

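RNA from 1 library of transfected and 1 library of untransfected rat bmMSCs was measured by oligo(dT)-selected, random-primed sequencing on an Illumina GA instrument, per the labels' protocols. The submitters' processing notes name genome build rn4, and no source used here gives the aligner or the counting tool. The deposited table holds read counts, and RPKM that the authors derived from them, with 0.001 written for 0 reads. The authors' log2 ratio, p-value and FDR are deposited beside them, and only genes with an FDR up to 0.000996 are listed. The p-values compare 2 libraries and were not used. Rows follow representative cDNAs, so genome coordinates are not given, and 1630 identifiers, those of the 5 genes included, matched RefSeq genes (GRCr8).

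Ratios were computed from counts divided by implied library totals, with Clopper-Pearson intervals, and levels with Poisson intervals, both 95% (SciPy 1.17.1, pandas 2.3.3, Python 3.11.15). The ratio intervals alone were tested on simulated data, which held counting error only. The labels name no molecular identifiers for PCR copies, and intervals and floors cover counting error only. In ratios, a count of 0 was replaced by a floor of 3 reads, and in the search for nearest genes by 1 read. TMM (edgeR 4.0.16) and median-of-ratios (DESeq2 1.42.0) scaling served as alternatives. The genes and lists were chosen with earlier results of these data known. The rule names the 5 genes, every listed gene of the lists, and the 2 nearest genes to each, and a few of these genes are counted but not reported here by name.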

Additional observations from a re-analysis of the deposited data

How the results depend on the processing

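Of 26 recomputed ratios of the 5 genes none changed direction, and 17 stayed inside the counting interval of the value reported. Only median-of-ratios scaling could have turned a direction. The 17 include the authors' own ratio of each of the 5 genes, equal by construction because the library totals were derived from their RPKM. Each scaling moves all genes by 1 common factor, so the 26 are not independent checks. On the listed genes, which were selected for difference, TMM scaling moved all log2 ratios by -0.78, median-of-ratios scaling by -1.20, and column sums by 0.10. The share of higher genes among calls was then 46.4% under TMM and 37.6% under median-of-ratios scaling, against 63.5%. Outside their intervals were Igfbp3 at 15.9 (column sums), 8.63 (TMM) and 6.43 (median of ratios), Igf1 at 1.83 (TMM) and 1.36 (median of ratios), and Akt2 at 1.98 and 1.47 in the same order, which ended the calls of Igf1 and Akt2. With 1 added to RPKM, Igfbp5 was at 98.8 and Igfbp2 at 0.291, since the added 1 exceeds the lower of their RPKM values. The authors' deposited log2 ratios gave the same ratios as reported. Adding the second Igfbp5 cDNA, an alternative chosen after seeing the data, gave 1226.

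Higher genes of the IGF axis numbered 14, or 8 under TMM and 7 under median-of-ratios scaling, and 10 at a ratio of at least 3. Lower genes numbered 15 under both scalings and 12 at a ratio of at least 3. A minimum of 30 reads could change neither count, since each of these genes had more than 30 reads over the 2 libraries. As a share of reads, which is not length-scaled, Igfbp5 held 16.9% of binding protein reads in transfected cells, Igfbp3 81.6% in transfected and 91.4% in untransfected cells, and Igfbp2 2.24% in untransfected cells. No paired analysis was possible because each condition has 1 library, and no replicate could be left out. Depth limits the size of the Igfbp5 and Igfbp2 differences, which rest on 4 and 3 reads in the lower library.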

Other observations

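The following genes have names or annotations that touch the IGF and insulin systems and were chosen after their values were seen. Igf2bp3, an RNA-binding protein that binds Igf2 messenger RNA and no IGF peptide, was lower, with 45 reads in transfected and 109 reads in untransfected cells (ratio 0.434, interval 0.300 to 0.620). Insig1, a sterol-regulated membrane protein of the endoplasmic reticulum first named for its induction by insulin, was lower, with 155 reads in transfected and 361 reads in untransfected cells (ratio 0.452, interval 0.372 to 0.547). Ghsr, the receptor for ghrelin, a hormone that releases growth hormone, had 42 reads in transfected and 0 reads in untransfected cells. It was 14.7-fold higher against a floor of 3 reads for the library (exact lower limit 11.5).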
